A study of Mus musculus with 26 samples.

Results

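The 5 genes described here encode secreted hormones and growth factors that stressed cells release: the stanniocalcins Stc1 and Stc2, growth differentiation factor 15 (Gdf15), fibroblast growth factor 21 (Fgf21) and adrenomedullin (Adm). They were taken by symbol from the deposited tables, 5 of 20430 gene symbols in the RNA tables and 5 of 19941 in the footprint tables. They were picked for their levels in these same libraries, so the levels and fold changes below are a description and no test of the genes is drawn from them. The cells were NIH3T3, an established line of mouse embryonic fibroblasts. There were 16 libraries of polyadenylated RNA and 10 of ribosome footprints, the mRNA fragments that translating ribosomes cover. Each group held 2 libraries. Heated cells were kept at 44 °C for 2 h or at 42 °C for 8 h and had a control of their own. Oxidative stress was H2O2 for 2 h or 7 h, and osmotic stress was KCl for 2 h or 7 h; these 4 groups shared another control. The labelled footprint libraries covered H2O2, KCl and their control. The sources used here give no dose of H2O2 or KCl. Nothing in the labels says that replicates were separate cultures, so standard errors and tests measure the spread between these libraries, which may be technical.

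As background, stanniocalcins are secreted glycoproteins that bind and block the pappalysins, proteases that cut insulin-like growth factor (IGF) binding proteins and so free IGF. GDF15 is a distant member of the TGF-beta family that acts on the brain through GFRAL and its partner RET, and FGF21 is an endocrine growth factor that signals through FGF receptors with beta-klotho (Klb). Adrenomedullin is a vasodilator peptide, amidated by the enzyme PAM, whose receptor is CALCRL paired with a RAMP protein. In many cell types Gdf15, Fgf21 and Stc2 are known targets of the ATF4/CHOP branch of the integrated stress response, Gdf15 is also a p53 target, and Adm is a classic target of the hypoxia factors (HIF).

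In RefSeq's annotation of GRCm38.p6, the assembly that the submitters' processing notes name as mm10, Stc1 spans chr14:69029289-69041401, Stc2 chr11:31359441-31370061, Gdf15 chr8:70629393-70632470, Fgf21 chr7:45613890-45615490 and Adm chr7:110627657-110629820. RefSeq windows of the 250 bases before the start were held for Stc2, Fgf21 and Adm (1 each) and Gdf15 (2, for 2 start sites). Both strands of these 5 windows were searched for 7 short motifs. The windows of Fgf21, chr7:45615491-45615740 on the minus strand, and of Adm, chr7:110627407-110627656 on the plus strand, are printed because they held matches just outside the gene, with every match in capitals.
Fgf21: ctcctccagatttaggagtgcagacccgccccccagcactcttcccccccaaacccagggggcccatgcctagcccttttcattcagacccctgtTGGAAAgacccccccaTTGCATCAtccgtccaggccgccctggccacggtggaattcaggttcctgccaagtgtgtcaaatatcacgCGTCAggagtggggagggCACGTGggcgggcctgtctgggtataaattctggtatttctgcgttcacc
Adm: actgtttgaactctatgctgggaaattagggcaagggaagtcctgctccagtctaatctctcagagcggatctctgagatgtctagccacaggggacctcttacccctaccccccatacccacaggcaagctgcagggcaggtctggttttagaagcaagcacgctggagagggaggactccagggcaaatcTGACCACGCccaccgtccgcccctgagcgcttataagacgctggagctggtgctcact
The Fgf21 window held the ATF4/CHOP composite element TGATGNAA, read on the strand opposite to the gene and so printed as its reverse complement TTGCATCA, at bases -139 to -132, counted from the start. This motif was present in 3.45% of 32851 windows of the same length. The same window held the hypoxia element ACGTG, on both strands of 1 overlapping CACGTG stretch (16.6% of windows), the NFAT5 element TGGAAA (18.6%) and the shorter ATF element TGACG (17.8%). The Adm window held the NRF2 element TGACNNNGC at -58 to -50 (10.2% of windows). The second Gdf15 window held ACGTG, again on both strands, at -83 to -78. The AP-1 site TGANTCA (6.75%) and the heat shock element GAANNTTC (6.69%) were in none of the 5 windows. A match is a stretch of letters and says nothing of binding.

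RNA libraries held 30452066 to 42698179 counts in the heat experiment and 24441900 to 45244430 in the H2O2/KCl experiment, and footprint libraries 1460750 to 5168540. Of 10 fibroblast markers, 9 reached 1 TPM (transcripts per 1000000, which divides by transcript length) in at least 1 library. Their summed level was 3649.9 to 3676 TPM at 7 h of H2O2 and 6938 to 10069 TPM in the other RNA groups. Macrophage markers summed to 42.9 to 44.7 TPM at 7 h of H2O2 against 9.71 to 10.05 TPM in its control, with Adgre1 at 0 in every library. They summed to 28.8 to 30.4 TPM at 2 h of H2O2 and 18.0 to 21.4 TPM in the KCl groups. Of the 5 macrophage markers, 3 stayed under 1 TPM in every library, and 2 were tested in the H2O2/KCl experiment, Cd68 and Csf1r. Both were higher than the control at 2 h of H2O2 and of KCl. At 7 h of KCl Csf1r was higher and Cd68 lower, and from 2 h to 7 h of H2O2 Cd68 rose and Csf1r fell. Epithelial markers summed to 51.5 to 54.8 TPM in that control, 109 to 112 TPM at 2 h of KCl and 68.9 to 78.6 TPM in the other 3 H2O2 and KCl groups. In the heat experiment they summed to 36.8 to 40.1 TPM in the control and 82.3 to 89.0 TPM at 42 °C. Hepatocyte markers summed to at most 2.60 TPM, with Ttr, Serpina1a and Cyp3a11 at 0 in every library. The 1 tested in the H2O2/KCl experiment, Apoa1, was higher at 2 h of H2O2 (log2 fold change 5.42) and of KCl (8.14). Endothelial markers summed to 0.44 to 0.75 TPM in the H2O2/KCl control and 1.35 to 3.66 TPM in the H2O2 and KCl groups. Adipocyte markers summed to 3.79 to 13.54 TPM over all RNA libraries. The part of these marker shifts in the values below was not tested. In these bulk samples of an established cell line, a change in some cells and a change in all cells cannot be told apart.

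**Figure D1:**
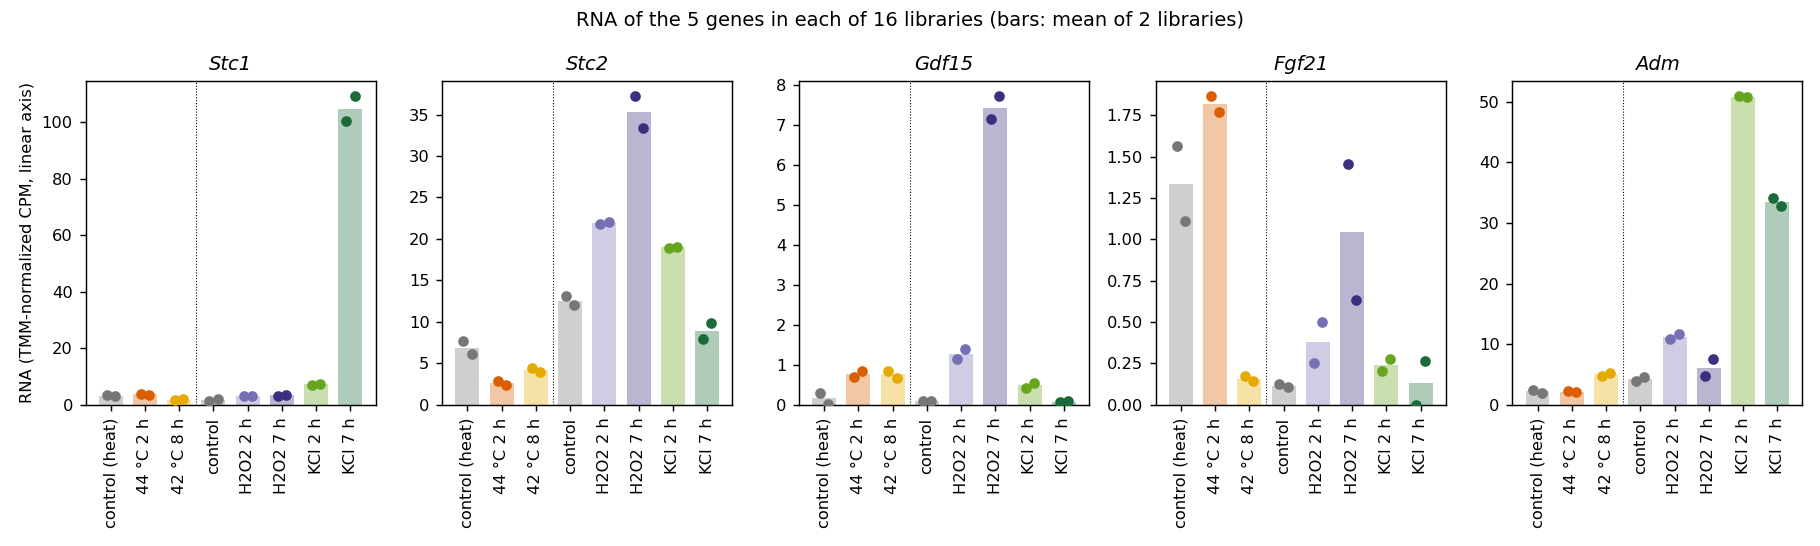
RNA level of each gene (TMM-normalized counts per 1000000, CPM, linear axis with its own scale in each panel) in each of 16 libraries, 1 point a library, with bars at the mean of 2 libraries; the dotted line separates the heat experiment from the H2O2/KCl experiment. Stc1 stands at 100.4 and 109 in the libraries of 7 h of KCl, Gdf15 at 7.16 and 7.71 at 7 h of H2O2, and Adm at 50.9 and 50.8 at 2 h of KCl.

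Stc1 RNA was highest at 7 h of KCl, by a wide margin over every other group. Levels are given as CPM, counts per 1000000 after TMM normalization. The control of the H2O2/KCl experiment held 1.51 and 2.15 CPM, and 2 h of KCl 7.16 and 7.43 CPM. At 7 h of KCl the level was 100.4 and 109 CPM. The level therefore stepped up at both KCl times, with no overlap between the groups, and the log2 fold change against the control went from 2.02 ± 0.15 (SE, n = 2 against 2) to 5.86 ± 0.12, a 58.1-fold difference. With H2O2 the level was 3.27 and 3.25 CPM at 2 h and 3.12 and 3.60 CPM at 7 h. Both H2O2 groups lay above the control and overlapped each other, at log2 fold changes of 0.86 ± 0.16 and 0.89 ± 0.16. In the heat experiment Stc1 held 3.31 and 2.96 CPM in the control, 3.84 and 3.65 CPM at 44 °C and 1.80 and 1.94 CPM at 42 °C. The 42 °C libraries were the lowest (log2 fold change -0.75 ± 0.17), and the 44 °C libraries lay just above the control (0.25 ± 0.15).

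Stc2 RNA moved over a narrower range, and in opposite directions under heat and H2O2. In the H2O2/KCl experiment its control held 13.1 and 12.1 CPM. It was at 21.8 and 22.0 CPM after 2 h of H2O2 and 37.2 and 33.4 CPM after 7 h. The H2O2 libraries were all above the control and higher at 7 h, with log2 fold changes of 0.80 ± 0.09 and 1.49 ± 0.09. After 2 h of KCl the level was 18.9 and 19.1 CPM, above the control (0.59 ± 0.10). After 7 h of KCl it was 7.93 and 9.89 CPM, below the control (-0.51 ± 0.11), so KCl took Stc2 through opposite signs at its 2 times. The heat control held 7.67 and 6.13 CPM, the 44 °C libraries 2.85 and 2.40 CPM and the 42 °C libraries 4.49 and 3.98 CPM. Both heat groups were below the control without overlap, at -1.40 ± 0.15 and -0.70 ± 0.14.

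Gdf15 RNA was low in both controls, at 1 to 13 counts a library, and highest at 7 h of H2O2. The H2O2/KCl control held 5 and 4 counts, or 0.103 and 0.105 CPM. It was at 1.14 and 1.39 CPM at 2 h of H2O2 and at 7.16 and 7.71 CPM at 7 h. These groups did not overlap, and the log2 fold changes against the control were 3.56 ± 0.33 and 6.10 ± 0.25. In counts, 431 at 7 h stood against 9 in the control, a ratio of 68.9 relative to the summed library totals with a 95% exact interval of 36.0 to 152 that covers counting error only. KCl gave 0.411 and 0.556 CPM at 2 h (2.18 ± 0.43) but only 2 counts in each library at 7 h, 0.0715 and 0.0883 CPM (-0.38 ± 0.67). Gdf15 was therefore above its control at 2 h of KCl. At 7 h of KCl, 4 counts stood against 9 in the control, a ratio of 0.66. Its 95% exact interval of 0.149 to 2.37, counting error only, gives no direction. In the heat control the libraries held 13 and 1 counts (0.299 and 0.0271 CPM), against 0.685 and 0.840 CPM at 44 °C and 0.858 and 0.670 CPM at 42 °C. The 2 heat groups overlapped each other and lay above the control, at 2.12 ± 0.51 and 2.13 ± 0.52. The uneven control sets the size: without its first library the log2 fold changes were 4.63 and 4.66, and without the second 1.34 and 1.36.

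Fgf21 RNA was low throughout, and its 2 controls differed. The heat control held 1.56 and 1.11 CPM (68 and 41 counts), and the control of H2O2 and KCl 0.124 and 0.105 CPM (6 and 4 counts). In length-scaled terms these levels were 3.41 ± 0.81 TPM (SD, n = 2) and 0.29 ± 0.028 TPM. Experiment and any other difference between these controls cannot be told apart. At 44 °C the level was 1.86 and 1.77 CPM (log2 fold change 0.43 ± 0.22), and at 42 °C 0.172 and 0.141 CPM. The 42 °C libraries were far below their control, at -3.07 ± 0.36, an 8.38-fold difference. H2O2 gave 0.254 and 0.503 CPM at 2 h (1.69 ± 0.75) and 1.46 and 0.633 CPM at 7 h (3.18 ± 0.62). All 4 H2O2 libraries were above the control, but the 7 h replicates were 48 and 16 counts, and without the first of them the log2 fold change was 2.33. KCl gave 0.206 and 0.278 CPM at 2 h (1.04 ± 0.89) and 0 and 0.265 CPM at 7 h (0.04 ± 1.06), where the 2 libraries held 0 and 6 counts and overlapped the control.

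Adm RNA was highest with KCl and higher at 2 h than at 7 h, the reverse of the order for Stc1. Its H2O2/KCl control held 3.93 and 4.64 CPM. KCl gave 50.9 and 50.8 CPM at 2 h and 34.1 and 32.9 CPM at 7 h. Both KCl groups stood clear of all other groups, with log2 fold changes of 3.58 ± 0.14, or 11.9-fold, and 2.98 ± 0.14. H2O2 gave 10.8 and 11.6 CPM at 2 h (1.40 ± 0.15) and 4.76 and 7.52 CPM at 7 h (0.50 ± 0.17). The 7 h libraries lay only just above the control, and the value rested on the second of them. Without it the log2 fold change was 0.16, and without the first control library 0.37, neither passing the test. With all libraries kept, the call was also lost on the log2(TPM + 1) scale (0.36) and on the log2(TPM + 0.1) scale (0.40). In the heat experiment Adm held 2.53 and 1.95 CPM in the control, 2.22 and 2.14 CPM at 44 °C and 4.78 and 5.32 CPM at 42 °C. The 44 °C libraries overlapped the control (-0.05 ± 0.18), and the 42 °C libraries were above it (1.16 ± 0.16).

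Compared per length, Stc2 was the most abundant of the 5 transcripts in both controls and both H2O2 groups, Adm at 42 °C and at 2 h of KCl, Stc1 at 7 h of KCl and Fgf21 at 44 °C. Adm reached 79.8 ± 0.17 TPM (SD, n = 2) at 2 h of KCl, where Stc2 was at 22.6 ± 0.27 TPM and Stc1 at 4.05 ± 0.14 TPM. At 7 h of KCl Stc1 was at 57.8 ± 4.2 TPM and Adm at 52.5 ± 0.63 TPM, and the ranges of the 2 genes did not overlap. At 7 h of H2O2 Stc2 was at 42.5 ± 3.2 TPM, Gdf15 at 15.4 ± 0.82 TPM and Fgf21 at 2.51 ± 1.4 TPM. In the heat control Stc2 was at 8.81 ± 1.39 TPM, at 42 °C Adm was at 7.48 ± 0.65 TPM, and at 44 °C Fgf21 was at 4.84 ± 0.27 TPM.

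**Figure D2:**
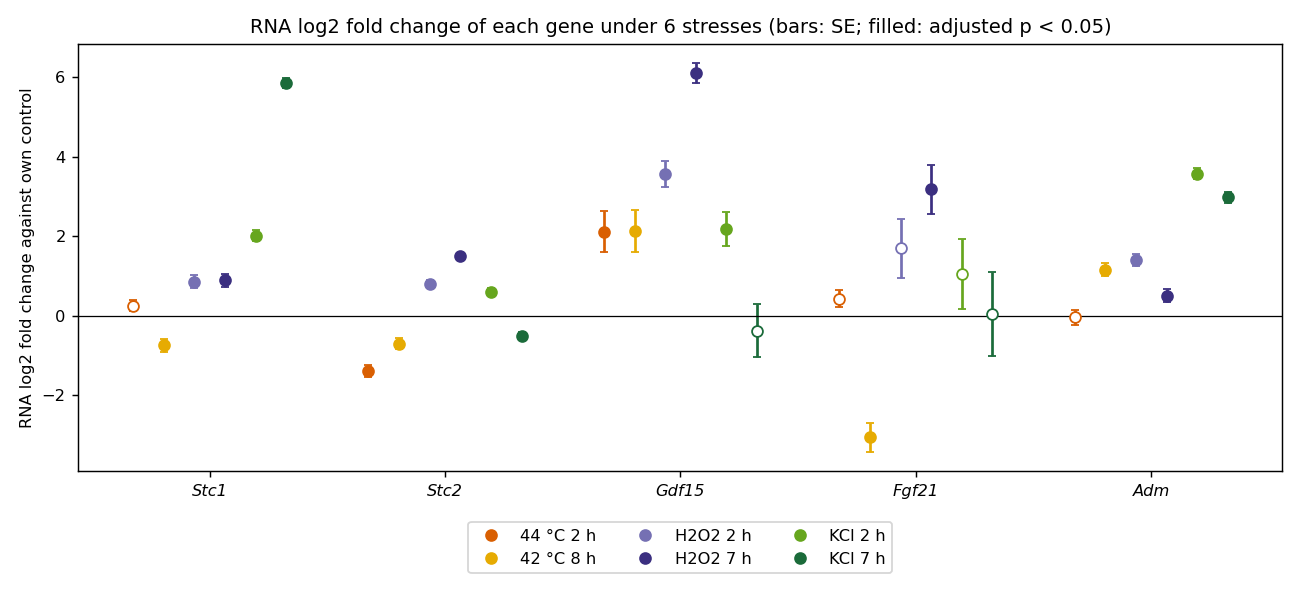
RNA log2 fold change of each gene against its own control (y axis) under 6 stresses, with SE bars; filled points passed an adjusted p of 0.05, n = 2 libraries a group. Stc1 stands at 5.86 for 7 h of KCl, Gdf15 at 6.10 for 7 h of H2O2, and Fgf21 at -3.07 for 42 °C.

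Counts of genes passing the test are given with the share of all genes that passed, because most genes did. The test was the quasi-likelihood F test of edgeR with Benjamini-Hochberg adjustment at 0.05. Of the 5 genes, 2 passed at 44 °C (71.0% of 12747 genes) and 5 at 42 °C (63.6%). With H2O2, 4 passed at 2 h (53.9% of 13256 genes) and 5 at 7 h (70.5%), and with KCl 4 passed at 2 h (54.2%) and 3 at 7 h (68.8%). The genes below their control among these were Stc2 at 44 °C, Stc1, Stc2 and Fgf21 at 42 °C, and Stc2 at 7 h of KCl. Since the genes were chosen from these contrasts, nothing is read from the counts. The 4 H2O2 and KCl contrasts share a control, as do the 2 heat contrasts.

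A filter kept genes with about 10 counts or more in enough libraries. Stc1, Stc2 and Adm passed it in every RNA library. In the H2O2/KCl experiment Fgf21 passed only through the 7 h H2O2 libraries, and Gdf15 through both H2O2 groups and 2 h of KCl. In the heat experiment Gdf15 passed through both heat groups, and Fgf21 through the control and 44 °C. In footprints Stc2 and Adm passed in all 10 libraries, Gdf15 through both H2O2 groups and Stc1 through 7 h of KCl, while Fgf21 failed and was not tested. For a gene kept only through the group where it was high, the filter favoured a difference there, so that difference is no test of the gene.

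The 2 times of each treatment were compared directly. Between 2 h and 7 h of H2O2, 4 of the 5 genes passed (73.4% of genes): Gdf15 was higher at 7 h by 2.54 ± 0.17 on the log2 scale, Fgf21 by 1.49 ± 0.52 and Stc2 by 0.69 ± 0.09, and Adm was lower (-0.90 ± 0.15). The Fgf21 value lost its call with DESeq2 (1.44), on the log2(TPM + 0.1) scale (1.26), without the first 7 h library (0.71) and without the first 2 h library (1.08). Stc1 differed by 0.03 ± 0.15. Between 2 h and 7 h of KCl, 4 passed (68.8%): Stc1 was higher at 7 h by 3.84 ± 0.10, while Gdf15 (-2.56 ± 0.53), Stc2 (-1.10 ± 0.11) and Adm (-0.60 ± 0.12) were lower. Stc1 was thus the 1 gene of the 5 that passed upwards over time with KCl. The Gdf15 value rested on 24 counts over the 2 h libraries and 4 over the 7 h libraries. On the log2(TPM + 1) scale, which understates changes of low genes, it was -0.72. In the heat experiment temperature and time differ together. From 44 °C for 2 h to 42 °C for 8 h, 4 passed (75.1%), with Adm (1.21 ± 0.17) and Stc2 (0.69 ± 0.17) higher, Fgf21 (-3.50 ± 0.35) and Stc1 (-1.0 ± 0.17) lower, and Gdf15 at 0.02 ± 0.40.

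H2O2 and KCl were also set against each other at matched times. At 2 h, 3 of the 5 genes passed (51.3% of genes). Gdf15 was higher with H2O2 by 1.38 ± 0.27, Adm (-2.18 ± 0.13) and Stc1 (-1.16 ± 0.14) were higher with KCl, and Stc2 was at 0.21 ± 0.09. At 7 h all 5 passed (78.4%). Gdf15 was 89.5-fold higher with H2O2 (6.48 ± 0.30), Fgf21 was higher by 3.14 ± 0.71 and Stc2 by 2.00 ± 0.10, whereas Stc1 (-4.97 ± 0.11) and Adm (-2.48 ± 0.14) were higher with KCl. The size for Gdf15 rested on 4 counts over the 7 h KCl libraries. On the log2(TPM + 1) scale, which understates changes of low genes, the Gdf15 value was 3.82. The Fgf21 value was 2.01 without the first 7 h KCl library and 2.35 without the first 7 h H2O2 library, and the second KCl library held all 6 counts of its group.

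**Figure D3:**
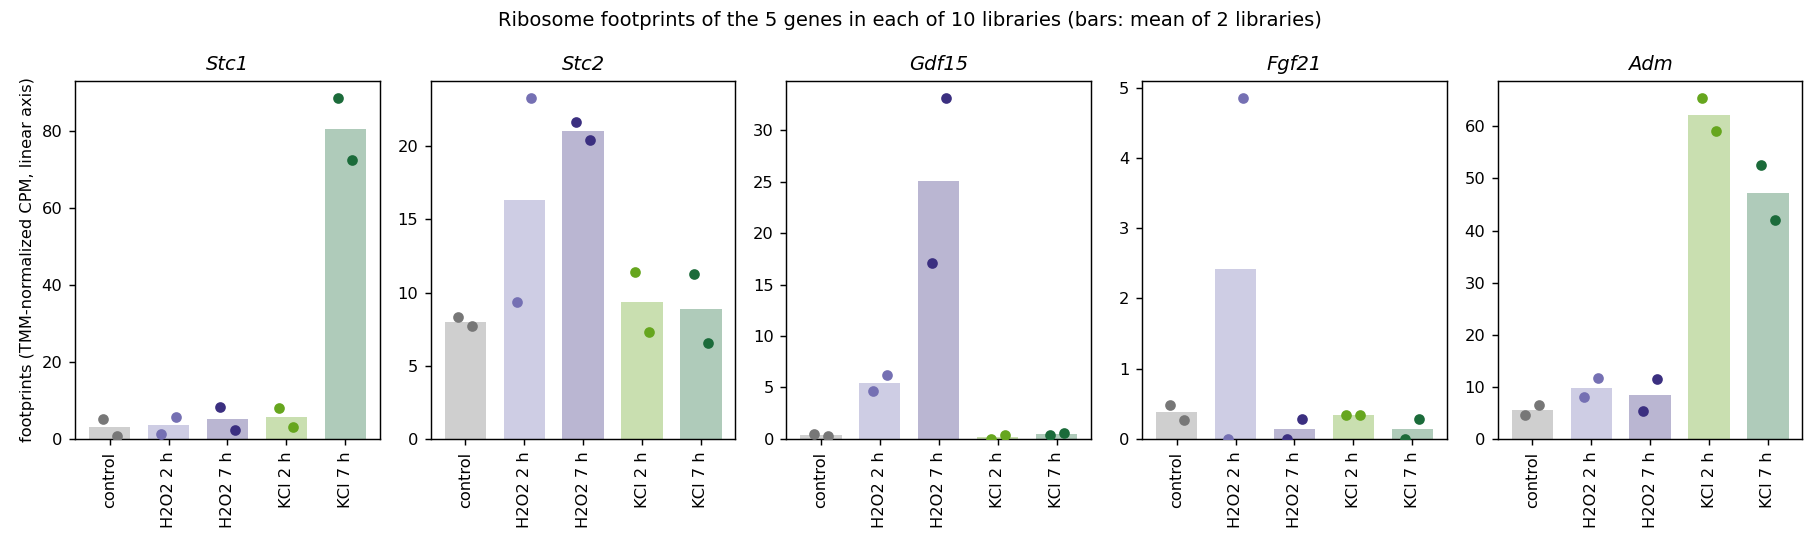
Ribosome footprint level of each gene (TMM-normalized counts per 1000000, CPM, linear axis with its own scale in each panel) in each of 10 libraries, 1 point a library, with bars at the mean of 2 libraries. Stc1 stands at 88.7 and 72.6 at 7 h of KCl, Gdf15 at 17.1 and 33.1 at 7 h of H2O2, and the high Fgf21 point at 2 h of H2O2 is a single library with 25 counts.

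Footprint libraries were shallower than RNA libraries, and replicates spread more widely. Stc1 footprints were 5.14 and 0.824 CPM in the control, 1.33 and 5.82 CPM at 2 h of H2O2, 8.26 and 2.30 CPM at 7 h of H2O2 and 8.05 and 3.13 CPM at 2 h of KCl. These 4 groups overlapped. At 7 h of KCl the level was 88.7 and 72.6 CPM, clear of all of them, with a log2 fold change of 4.70 ± 0.61. The control held 21 and 3 counts, so this size depended on it: 6.55 without its first library and 3.96 without its second.

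Adm footprints were 4.65 and 6.59 CPM in the control and 65.4 and 59.1 CPM at 2 h of KCl. At 7 h of KCl they were 52.6 and 42.0 CPM. The KCl groups stood above every other library, at log2 fold changes of 3.47 ± 0.34 and 3.07 ± 0.34. H2O2 gave 8.00 and 11.6 CPM at 2 h (0.89 ± 0.38) and 5.41 and 11.5 CPM at 7 h (0.59 ± 0.38), the latter overlapping the control and at -0.09 without the second 7 h library. Neither H2O2 value passed the test.

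Gdf15 footprints were counted 2 and 1 times in the control, 7 and 32 times at 2 h of H2O2 and 60 and 115 times at 7 h. The ratio to the control over the summed library totals was 14.8 (95% exact interval 4.69 to 74.7, counting error only) at 2 h and 67.6 (22.8 to 331) at 7 h. In CPM the H2O2 libraries were 4.67 and 6.21 at 2 h and 17.1 and 33.1 at 7 h, against 0.489 and 0.275 in the control, without overlap. KCl libraries held 0 and 1 counts at 2 h and 1 and 2 counts at 7 h, which is at the floor of 3 counts over a group, so no fold is given.

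Stc2 footprints were 8.32 and 7.69 CPM in the control, 9.34 and 23.3 CPM at 2 h of H2O2 and 21.6 and 20.4 CPM at 7 h. Both H2O2 groups lay above the control, at 1.14 ± 0.40, which did not pass the test and was 0.21 without the second 2 h library, and 1.39 ± 0.39. KCl libraries held 11.4 and 7.30 CPM at 2 h and 11.3 and 6.52 CPM at 7 h and overlapped the control (0.22 ± 0.43 and 0.12 ± 0.43). Fgf21 footprints were counted 0 to 2 times in 9 of the 10 libraries. The exception was the second library at 2 h of H2O2, with 25 counts where its replicate had 0, and the 7 h H2O2 libraries held 0 and 1.

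Of the 4 genes tested in footprints, 1 passed at 2 h of H2O2 (Gdf15; 1.91% of 10545 genes), 2 at 7 h of H2O2 (Gdf15 and Stc2; 27.7%), 1 at 2 h of KCl (Adm; 6.86%) and 2 at 7 h of KCl (Adm and Stc1; 20.4%). The Gdf15 call at 2 h was lost without either control library (4.19 and 3.44) and without the second H2O2 library (3.45), and the Stc2 call at 7 h was lost without any 1 of its 4 libraries (1.30 to 1.40). Between the times, 1 gene passed for H2O2 (Gdf15, 2.13 ± 0.42; 29.8%) and 1 for KCl (Stc1, 3.83 ± 0.58; 20.6%). The Gdf15 call between times was lost without the second 7 h library (1.56). When H2O2 and KCl were set against each other at 2 h, 2 genes passed (Gdf15 and Adm, with 5.12% of genes). Gdf15 lost its call without the second H2O2 library or the first KCl library. At 7 h 4 passed (41.2%), and Stc2 (1.26 ± 0.40) lost its call without either H2O2 library (1.17 and 1.26) or the second KCl library (0.89). The filter kept Gdf15 only through the H2O2 groups. Its KCl libraries held 0 and 1 counts at 2 h and 1 and 2 at 7 h, so its calls against KCl are no test of the gene.

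**Figure D4:**
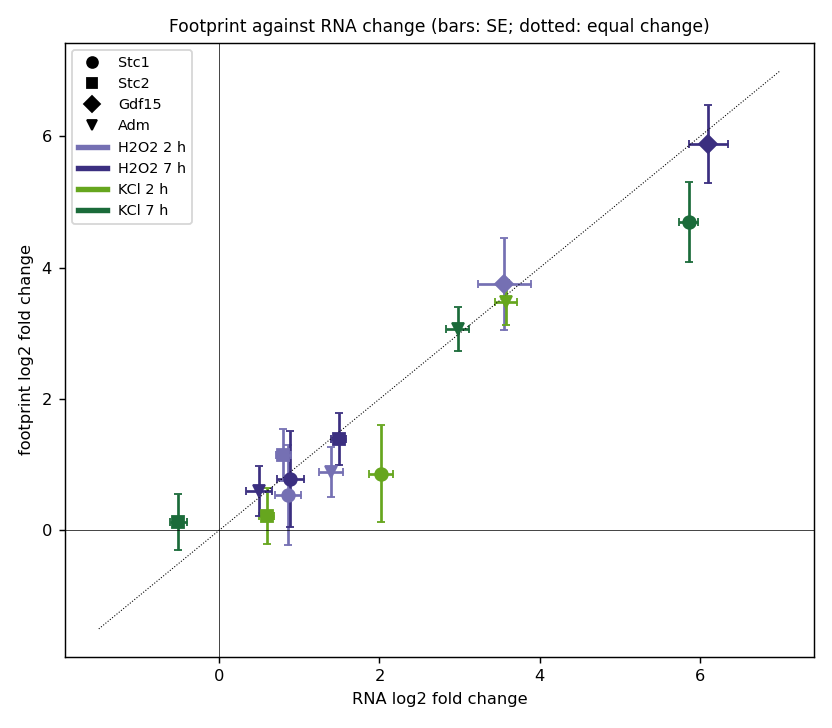
Footprint log2 fold change (y axis) against RNA log2 fold change (x axis) for Stc1, Stc2, Gdf15 and Adm under H2O2 and KCl, with SE bars; the dotted line marks equal change, and Gdf15 under KCl and Fgf21 are left out for low footprint counts. Gdf15 at 7 h of H2O2 stands at 6.10 in RNA and 5.89 in footprints, and Stc1 at 7 h of KCl at 5.86 and 4.70.

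Whether footprints of a gene changed by more or less than its RNA, its translational efficiency, was tested as an interaction in 1 model of the 20 H2O2, KCl and control libraries. None of the 4 genes tested passed in edgeR in any of the 4 contrasts, where 11.4%, 9.27%, 12.8% and 5.57% of genes did (2 h and 7 h of H2O2, then 2 h and 7 h of KCl). The count at an unadjusted p under 0.05 was also 0, and limma voom gave 0. For Adm the 4 log2 changes in efficiency were -0.49 ± 0.44, 0.10 ± 0.46, -0.10 ± 0.38 and 0.13 ± 0.39. For Stc2 they were 0.44 ± 0.35, -0.10 ± 0.35, -0.38 ± 0.40 and 0.64 ± 0.41. Stc1 was at -1.16 ± 0.76 at 2 h of KCl and -1.14 ± 0.65 at 7 h. Without the first control footprint library these values were 0.74 and 0.76, and without the second -1.89 and -1.86. Gdf15 was at 0.33 ± 1.44 and -0.07 ± 0.57 with H2O2. A change in efficiency of the size of these standard errors was not detectable at this depth.

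The pathway genes around the 5 ligands are counted below by direction in RNA against the control of each experiment. Of all genes tested, 35.4% were higher and 35.7% lower at 44 °C, and 31.7% and 31.9% at 42 °C. With H2O2, 27.3% were higher and 26.5% lower at 2 h, and 39.4% and 31.1% at 7 h. With KCl, 27.2% were higher and 27.0% lower at 2 h, and 37.2% and 31.6% at 7 h.

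The receptor genes were mostly scarce in these cells. Of 14 listed, 9 were tested in the heat experiment and 10 in the H2O2/KCl experiment. Gfral and Gpr182 were at 0 counts in all 16 RNA libraries, and Klb was at 0 counts in both controls. Fgfr1 was the abundant exception, at 91.6 ± 0.47 TPM (SD, n = 2) in the H2O2/KCl control. Ret rose at 44 °C (log2 fold change 2.35 ± 0.15), from 1.54 ± 0.09 CPM (SD, n = 2) in the control to 7.81 ± 0.39 CPM. Calcrl, the adrenomedullin receptor, fell at 44 °C (-1.01 ± 0.29) and at 42 °C (-2.65 ± 0.38), and rose at 7 h of KCl (4.17 ± 0.55) from 5 to 57 counts over 2 libraries. With H2O2, 7 of 10 receptor genes were higher and 0 lower at 2 h, and 5 were higher and 4 lower at 7 h. Fgfr4 held 3 counts in the control and 49 at 7 h of H2O2. Ackr3, a scavenger of adrenomedullin, fell at 7 h of H2O2 (-1.12 ± 0.13) and of KCl (-1.29 ± 0.13). Levels of Calcrl and Fgfr4 stayed under 1 TPM in every group mean.

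Among the pappalysins and the IGF axis, on which stanniocalcins act, 8 of 10 tested genes were lower and 1 higher at 44 °C. The median log2 fold change was -0.48, against 0.00 over all genes. Pappa rose (0.80 ± 0.09) and Pappa2 fell (-2.61 ± 0.53), from 43 to 6 counts. At 42 °C 2 were higher and 4 lower, with Igfbp5 at -2.04 ± 0.07. With H2O2, 2 of 9 were higher at 2 h, and at 7 h 1 was higher and 6 lower, at a median of -0.60 against 0.08 over all genes. Igf1 fell at 7 h of H2O2 (-2.12 ± 0.62) and rose with KCl at 2 h (1.36 ± 0.37) and 7 h (1.17 ± 0.38), where 5 and 4 of the 9 genes were higher and 0 and 2 lower.

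Of 8 genes for processing of secreted peptides, 7 were tested in RNA. With KCl at 7 h Furin, the proprotein convertase, rose (1.23 ± 0.07) and the secretory kinase Fam20c fell (-1.22 ± 0.09), with 3 higher and 2 lower. At 7 h of H2O2 Pcsk6 rose (1.82 ± 0.13) and Furin fell (-0.73 ± 0.07). Pam, which amidates adrenomedullin, fell at 44 °C (-0.81 ± 0.05). Its translational efficiency rose at 7 h of H2O2 (1.30 ± 0.19), and that of Furin fell at 2 h of KCl (-2.06 ± 0.21) and at 7 h (-1.30 ± 0.20).

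Adm2, which encodes the related peptide intermedin, had values unlike those of Adm. Its RNA was at 0.725 ± 0.17 CPM (SD, n = 2) in the H2O2/KCl control, 7.13 ± 0.51 CPM at 2 h of H2O2 and 25.1 ± 0.44 CPM at 7 h. Adm2 thus rose with H2O2, by 3.26 ± 0.16 and 5.08 ± 0.14 on the log2 scale, where Adm stood at 1.40 and 0.50. With KCl it was at 0.851 ± 0.14 and 0.924 ± 0.06 CPM, close to the control. With heat it fell, from 6.45 ± 0.11 CPM to 2.18 ± 0.09 CPM at 44 °C (-1.56 ± 0.14) and 0.852 ± 0.01 CPM at 42 °C (-2.91 ± 0.17). The difference between Adm2 and Adm was not tested. Adm2, like Fgf21, had a much higher level in the heat control than in the other control. Footprints of Adm2 rose less than its RNA at 7 h of H2O2 (2.73 ± 0.52), and its efficiency fell (-2.32 ± 0.63).

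**Figure D5:**
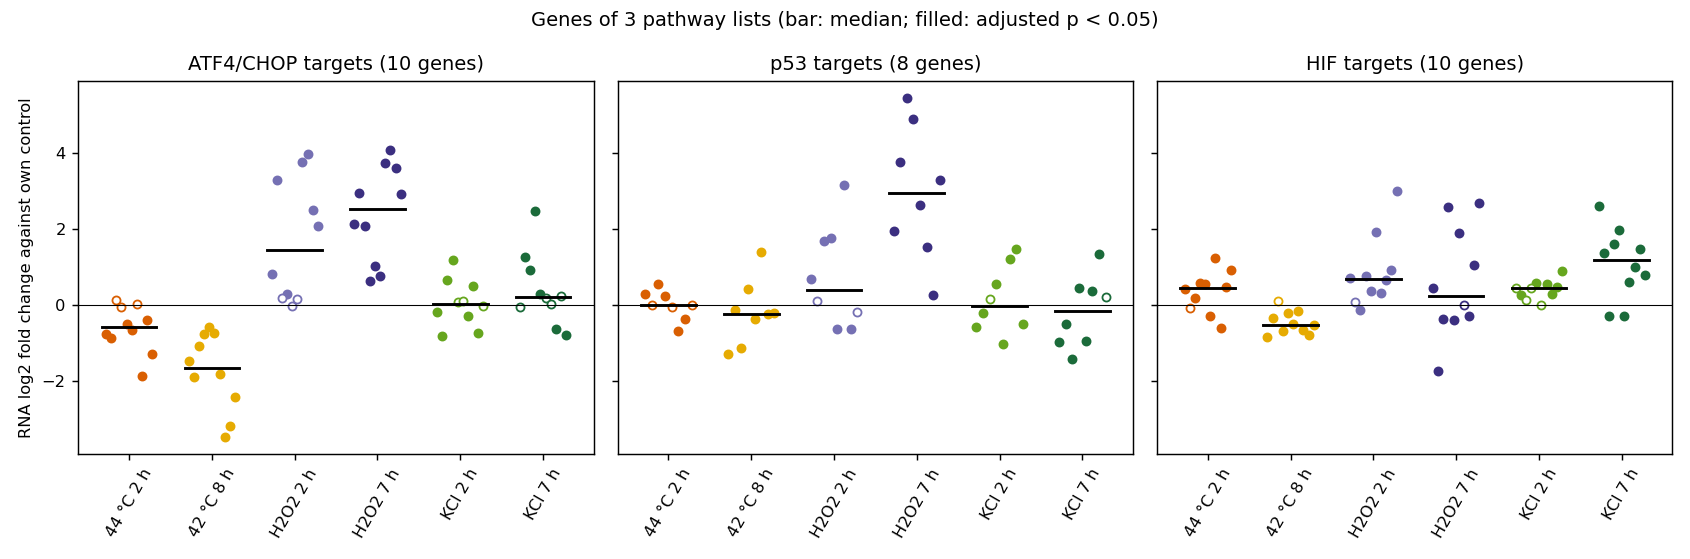
RNA log2 fold change against the own control (y axis) of the genes in 3 pathway lists under 6 stresses, 1 point a gene, filled where the adjusted p was under 0.05, with a bar at the median. All 10 ATF4/CHOP targets are above 0 at 7 h of H2O2 (median 2.53) and below 0 at 42 °C (median -1.66).

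Genes of the pathways known to act on these ligands moved in different patterns. Of 10 ATF4/CHOP targets, 7 were higher and 0 lower at 2 h of H2O2 (median 1.44) and 10 were higher at 7 h (median 2.53, against 0.08 over all genes). Slc7a11, the cystine transporter, rose most in this list, by 3.97 ± 0.12 and 4.09 ± 0.12. In the heat experiment 7 were lower and 0 higher at 44 °C and 10 were lower at 42 °C (median -1.66), again with Slc7a11 at the extreme (-1.89 ± 0.09 and -3.48 ± 0.11). With KCl the list was mixed, 3 higher and 4 lower at 2 h, 4 higher and 2 lower at 7 h, with Nupr1 at 2.46 ± 0.10.

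Of 8 p53 targets, all were higher at 7 h of H2O2 (median 2.96), led by the cell cycle inhibitor Cdkn1a (5.45 ± 0.08), after 4 higher and 2 lower at 2 h. At 44 °C 3 were higher and 2 lower, at 42 °C 2 higher and 6 lower, and with KCl 3 higher and 4 lower at each time. Of 10 HIF targets, 8 were higher and 2 lower at 7 h of KCl (median 1.17), led by Ankrd37 (2.60 ± 0.15), and 6 were higher and 0 lower at 2 h (median 0.44). With H2O2, 8 were higher and 1 lower at 2 h, with Vegfa, the vascular growth factor, at 3.0 ± 0.07, and 5 were higher and 4 lower at 7 h. At 44 °C 7 were higher and 2 lower and at 42 °C 0 were higher and 9 lower, where Adm itself stood at 1.16.

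The 14 transcription factor genes linked to these ligands were led by Atf3 at 2 h of H2O2 (5.06 ± 0.09) and at 42 °C (4.21 ± 0.06), and by Nfat5, the osmotic stress factor, at 7 h of KCl (1.98 ± 0.11). Egr1 fell at 7 h of KCl (-1.98 ± 0.09), and Ddit3, which encodes CHOP, fell at 42 °C (-1.57 ± 0.10). Efficiency of Atf4 rose at 2 h of H2O2 (1.18 ± 0.23), while that of Atf3 fell (-1.51 ± 0.42). In footprints, 8 of 10 ATF4/CHOP targets and 8 of 8 p53 targets were higher at 7 h of H2O2, led by Sesn2 (3.59 ± 0.27) and Mdm2 (5.74 ± 0.35), and none of either list was lower (17.2% of genes were higher and 10.6% lower). All these lists were chosen with results of these libraries in view, so their counts are a description.

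The study's title concerns transcription that runs past a gene's end into its neighbour, and 3 of the 5 genes stood in its pairs of neighbouring genes. The authors' deposited calls mark downstream-of-gene transcription (DoG) as present or absent for 6399 pairs, and each listed pair had a call in at least 1 of 16 libraries. Over all pairs and libraries 28.5% of the entries were present. Stc2 into Chac2 was called in 11 of 16 libraries and Bod1 into Stc2 in 11, including both libraries of each control for the latter. Swap70 into Adm was called in 7 and Fgf21 into Ppp1r15a in 1. With KCl, Swap70 into Adm was called in 1 library at 2 h and in 0 at 7 h, and in both libraries of each control. The authors' read-in call, which marks such transcription reaching into the neighbour, was absent for all 4 pairs in all 16 libraries. Their read-in estimate reached 0.108 for Bod1 into Stc2 in 1 library at 44 °C and 0.0812 for Swap70 into Adm at 2 h of H2O2. For Swap70 into Adm it was 0.00893 and 0.0162 at 2 h of KCl, and 0 in both libraries at 7 h of KCl and in both of their control.

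The neighbour Ppp1r15a, which encodes the stress phosphatase subunit GADD34 and lies next to Fgf21, rose with H2O2 at 2 h (2.81 ± 0.08) and 7 h (2.59 ± 0.08) with KCl at 2 h (2.51 ± 0.08) and 7 h (0.74 ± 0.08), and at 42 °C (0.45 ± 0.06), and fell at 44 °C (-0.23 ± 0.06). At 42 °C Fgf21 stood at -3.07 ± 0.36. Differences between the 2 genes were not tested.

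Likeness of pattern was measured as the root mean square difference of log2 fold changes over the 6 stress contrasts, among 12452 genes tested in both experiments. The genes nearest Adm were Ctsk, the lysosomal protease cathepsin K (0.36), Mss51 (0.48) and Trim71 (0.51). Those nearest Stc2 were Fsip1 (0.31), Gars, a tRNA synthetase (0.32), and Fgf2 (0.36). Stc1, Gdf15 and Fgf21 had no neighbour as close: theirs were Exph5 (0.90), Dpt and Htra3 for Stc1, Areg, an EGF family ligand (0.94), Dusp2 and Bcl2l15 for Gdf15, and Trp53cor1 (0.72), Mfsd4b3 and C4b for Fgf21. Such a distance also grows with the size and the error of a gene's fold changes, and their part in these distances was not tested. Ctsk stood at 3.16 and 2.62 at the 2 KCl times, beside 3.58 and 2.98 for Adm. Exph5, the nearest to Stc1, was at 4.18 at 7 h of KCl where Stc1 was at 5.86. The contrasts share controls, and on the log2(TPM + 1) scale, an alternative chosen after seeing the data, 1 of the 3 genes remained nearest for Stc2 and for Gdf15 and 0 for Stc1, Fgf21 and Adm.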

How the data were processed

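The genes and gene lists were chosen with earlier results of these data known. The authors deposited expected counts per gene (RSEM, per the file names) and TPM for the same libraries; the counts were whole numbers and were used as they stood. The submitters' processing notes name STAR, RSEM, Bowtie and mm10, with no version. Per the labels' protocols, RNA libraries came from an NEB kit and footprint libraries from an earlier method. The authors' DoG and read-in calls and a read-in ratio per gene pair were deposited without their formula. Another 12 columns with no labelled sample were not used.

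Counts were tested with edgeR 4.0.16 (R 4.3.3): TMM, filterByExpr (smallest count 10, smallest total 15), glmQLFit and adjustment by Benjamini-Hochberg across the genes each fit tested, with 1 fit for each experiment and for footprints. Heat and H2O2/KCl libraries were fitted apart. SE is the absolute log2 fold change over the square root of F. Efficiency was an interaction with TMM within each kind of library. DESeq2 1.42.0 and limma 3.58.1 gave alternatives. The scripts were tested on simulated data. Named genes were the 5, for each list and contrast the called gene with the largest and the smallest fold change, the 3 nearest genes by pattern, and the paired neighbours; receptors at 0 and Fgfr1 were named after their values were seen. Footprint libraries were shallower than RNA libraries, and their errors were wider.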

Additional observations from a re-analysis of the deposited data

Results flagged for a closer look

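The stress response of several genes differed between the 2 times of a treatment, by the direct test of the 2 times against each other (edgeR, adjusted p under 0.05, 2 libraries a group). With H2O2 the RNA difference from 2 h to 7 h was 2.54 on the log2 scale for Gdf15, 1.49 for Fgf21, 0.69 for Stc2 and -0.90 for Adm. With KCl it was 3.84 for Stc1, -2.56 for Gdf15, -1.10 for Stc2 and -0.60 for Adm. In footprints it was 2.13 for Gdf15 with H2O2 and 3.83 for Stc1 with KCl, where 29.8% and 20.6% of genes passed. The Fgf21 value lost its call with DESeq2 (1.44) and on the log2(TPM + 0.1) scale (1.26). It also lost it without the first 7 h library (0.71) and without the first 2 h library (1.08). The Gdf15 footprint call with H2O2 was lost without the second 7 h library (1.56). The Gdf15 RNA value with KCl rested on 24 counts over the 2 h libraries and 4 over the 7 h libraries. The filter kept Fgf21 RNA only through 7 h of H2O2, and 7 h of KCl was the 1 group with both Stc1 footprint libraries over it. These differences of Fgf21 and of Stc1 footprints are therefore no test of those genes. In RNA, most genes passed this test (73.4% for H2O2 and 68.8% for KCl), and the genes were chosen from these data, so the values are a description.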

How the results depend on the processing

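Over 1140 values of the 5 genes under the alternatives, 1110 kept their side of the threshold, 23 lost a call, 7 gained one and 0 calls changed sign; in 57 the sign differed where neither value was called. The number of genes called in footprints at 2 h of H2O2 was 1, and 0 on the log2(TPM + 0.1) scale or with only the 2 groups compared, and 0 to 1 with a library left out. It was 2 at 7 h of H2O2 and 1 with a library left out. It was 1 between the H2O2 times, 2 with no filter on low counts, and 0 to 2 with a library left out. It was 2 for H2O2 against KCl at 2 h and 1 to 2 with a library left out. DoG calls of the 4 pairs came in 20 pair and group combinations in any replicate and in 10 in both replicates. The cause of these shifts was not tested, beyond the smaller number of samples where a library was left out. Fgf21 at 44 °C passed on the log2(TPM + 1) scale (0.42), on the log2(TPM + 0.1) scale (0.51) and without the first control library (0.70). On the log2(TPM + 1) scale, which understates changes of low genes, Stc1 at 7 h of KCl was 4.82, Gdf15 at 7 h of H2O2 was 3.74 and Fgf21 at 42 °C was -1.70.

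Counts over all genes that moved by over 1.5 times were 201 for footprints at 2 h of H2O2 (27 to 315), 2925 at 7 h (1681 to 3339), 723 at 2 h of KCl (211 to 849), 2148 at 7 h (996 to 2253), 3139 between H2O2 times (1828 to 3217), 2170 between KCl times (802 to 2242) and 540 for H2O2 against KCl at 2 h (122 to 684). For efficiency they were 1199 (586 to 1887) and 971 (453 to 1102) for H2O2 and 1337 (775 to 1434) and 584 (230 to 642) for KCl. On the log2(TPM + 1) scale the median of all genes shifted by -0.15 at 42 °C and by 0.10 in footprints at 7 h of H2O2. The labels give groups the same replicate numbers, but same-numbered libraries shared deviations of r -0.02 to 0.12 in heat, -0.05 to 0.05 in H2O2/KCl RNA and -0.38 to 0.42 in footprints. In footprints the 6 pairs of groups without 2 h of H2O2 were at 0.20 to 0.42, and the 4 pairs with it at -0.38 to -0.05, so not every pair was over 0.1 and the numbers were not taken as pairs. In those 4 groups without 2 h of H2O2, Stc1 footprints were higher in replicate 1. With the replicate block, the count of genes called at 7 h of KCl was 3 in RNA, as without it, and no other count of the 5 genes changed by over 1.5 times. Fgf21 footprints were too few to be tested, with 1 of 10 libraries over the filter.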
